A study of Saccharomyces cerevisiae YPS1009 with 8 samples.

Results

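The genes described here encode the enzymes that turn pyruvate into ethanol and ethanol back into acetate: 3 pyruvate decarboxylase genes (PDC1, PDC5 and PDC6), 5 alcohol dehydrogenase genes (ADH1 to ADH5) and 2 aldehyde dehydrogenase genes (ALD4 and ALD6). These 10 genes were taken by systematic name from the 6536 rows of the ribosome profiling tables, and all 10 were among the 5794 genes that passed the filter on low counts. Their systematic names are YLR044C for PDC1, YLR134W for PDC5, YGR087C for PDC6, YOL086C for ADH1, YMR303C for ADH2, YMR083W for ADH3, YGL256W for ADH4, YBR145W for ADH5, YOR374W for ALD4 and YPL061W for ALD6. PDC1 and PDC5 lie on chromosome XII, the chromosome that is duplicated in the aneuploid strain.

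Ribosome profiling sequences the short mRNA fragments that ribosomes shield from nuclease, so that the reads of a gene follow how many ribosomes sit on its mRNA. It was applied to haploid MATa derivatives of the wild yeast isolate YPS1009 that carry an ho deletion. The euploid has a NatMX drug marker in an intergenic region of chromosome XII. The Chr12 strain has a duplicated chromosome XII, with NatMX on 1 copy and His3MX6 on the other at that site, and carries a his3 deletion. Cultures in YPD, a rich glucose medium, were started at an OD600 of 0.05 and shaken at 30 °C, and cells were collected in log phase after 3 generations or at day 4. Each of the 4 groups had 2 biological replicates, each genotype was represented by 1 strain, and the strains also differ at HIS3.

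In cells growing on glucose, pyruvate decarboxylase splits pyruvate into acetaldehyde and carbon dioxide, and Adh1 reduces the acetaldehyde to ethanol, which regenerates NAD+ for glycolysis. Once glucose is gone, ethanol becomes the carbon source: Adh2, whose gene is repressed by glucose, oxidises it to acetaldehyde, aldehyde dehydrogenases oxidise that to acetate, and acetyl-CoA synthetase feeds the acetate into the citrate and glyoxylate cycles. The balance between the isozymes is therefore a textbook mark of the shift from fermentation to ethanol use.

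Total reads per library were 1455211 to 2354539 in log phase and 211302 to 6215498 at day 4, where replicate 1 was the shallow one in both strains (211302 for the euploid and 396306 for Chr12). A list of 5 stationary phase markers separated the phases. Summed CPM (counts per 1e6 reads, scaled with TMM factors) of its genes HSP12, HSP26, SPI1, GRE1 and CTT1 were 39.1 to 175 in log phase and 7874 to 66772 at day 4. The median chromosome XII gene was 1.65-fold higher in Chr12 than in the euploid in log phase and 1.76-fold higher at day 4, relative to genes on other chromosomes. All values are shares of a library without a spike-in, so that fewer ribosomes per cell, or fewer cells with ribosomes on these mRNAs, cannot be told apart from a lower share.

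The 10 genes together took 2.89% to 4.85% of all reads in log phase and 1.99% to 4.14% at day 4, and the split of those reads among the members differed between the phases. PDC1 and ADH1, the main fermentative pair, took 2.55% to 4.31% of the reads in log phase and 0.883% to 2.09% at day 4. ADH2, ALD4 and PDC6 went the other way, from 0.0232% to 0.0314% in log phase up to 0.962% to 2.28% at day 4. In the Chr12 day 4 libraries PDC1 and ADH1 still held most member reads, 2.09% of the library out of 3.42% and 1.79% out of 3.17%. Averaged over both strains, 4 members were higher at day 4 (ADH2, ALD4, PDC6 and ADH4) and 3 were lower (PDC1, ADH1 and ALD6) at an adjusted p under 0.05 in edgeR's quasi-likelihood test. Of all genes tested, 40% passed that test (22.9% higher and 17.1% lower). In 6 members (PDC1, PDC6, ADH1, ADH2, ALD4 and ALD6) the 4 day 4 libraries did not overlap the 4 log phase libraries, as was so for 41.2% of all genes. The median log2 change of the members was 0.02 against 0.31 for all genes tested. With RLE in place of TMM scaling the median of all genes was 0.15, and every log2 change given here is to be read against that shift.

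**Figure D1:**
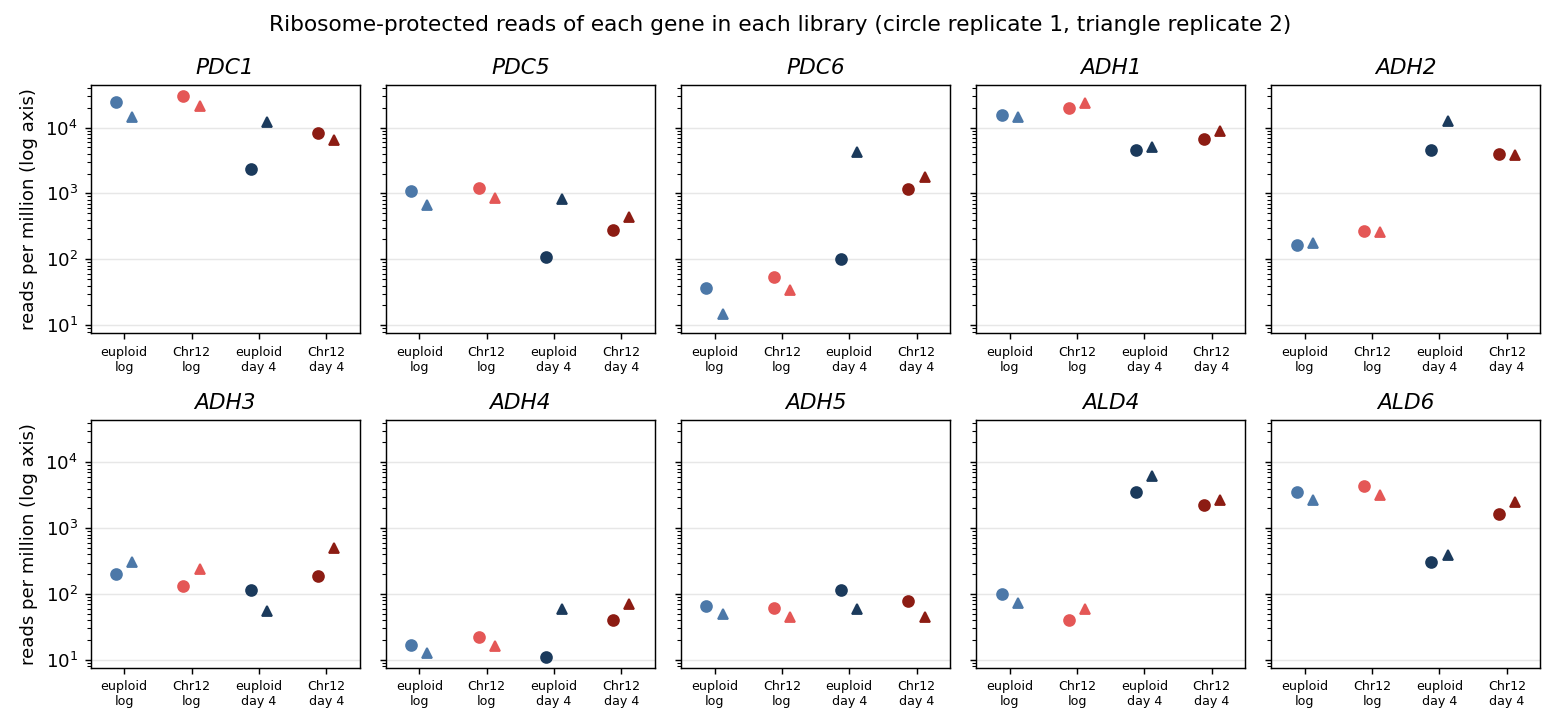
TMM-scaled CPM (vertical log axis) of each of the 10 genes in the 8 libraries, by strain and phase; circles are replicate 1 and triangles replicate 2. ADH2 and ALD4 separate the phases without overlap, ADH5 lies between 44.5 and 116 CPM throughout, and PDC6 in euploid day 4 spans 101.4 to 4194 CPM between its 2 replicates.

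PDC1 encodes the major pyruvate decarboxylase and was among the genes with the most reads for their length in log phase, ranked 6 to 15 of 6532 rows with a systematic name. Its CPM in log phase was 24442 and 14523 in the euploid (replicates 1 and 2) and 29888 and 21234 in Chr12. By day 4 it was 2370 and 12200 in the euploid and 8165 and 6509 in Chr12. All 4 day 4 libraries were below all 4 log phase libraries, and euploid day 4 replicate 2 lay close to the lowest of them. Over both strains PDC1 fell by 1.61 on the log2 scale (SE 0.52, adjusted p = 0.0383). The call rested on small margins: it was lost when any library other than those of euploid day 4 was left out (adjusted p = 0.0647 to 0.129), and within a single strain it was not reached (adjusted p = 0.192 in the euploid and 0.118 in Chr12, where DESeq2 gave 0.0293 and the second tables of replicate 1 gave 0.0297). The Chr12 call was also reached without either euploid day 4 library (adjusted p = 0.00935 and 0.0105), and that in the euploid without euploid day 4 replicate 2 (log2 change -3.39, adjusted p = 0.00727). Without the latter library the mean log2 change was -2.65, and with each position counted at most once it was -0.27 (adjusted p = 0.257).

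PDC5, the second decarboxylase, which is known to be induced when PDC1 is missing, had 1094 and 666 CPM in the log phase euploid and 1208 and 861 CPM in log phase Chr12. In the day 4 libraries it had 109 and 809 CPM in the euploid and 275 and 432 CPM in Chr12. The phases overlapped through euploid day 4 replicate 2, and the mean change did not pass the test (log2 change -1.24, SE 0.59, adjusted p = 0.133). Without that library it did, at -2.49 (adjusted p = 0.00314), and so it did in DESeq2 (-1.38, adjusted p = 0.0409) and with each position counted at most once (-0.94, adjusted p = 0.00186).

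In every library except Chr12 day 4 replicate 1, most PDC5 reads lay where PDC1 had a count within 2-fold. PDC1 and PDC5 have coding regions of equal length, 1692 nt, so that positions can be compared directly. In Chr12 log phase replicate 2, the 3 PDC5 positions with the most reads, 174, 1101 and 1095 nt after the A of the ATG, held 82, 72 and 66 reads, and PDC1 held 82, 75 and 70 reads at the same positions. From 41.4% to 84.3% of the PDC5 reads of a library lay at positions where PDC1 had a count within 2-fold, and PDC5 reads covered 8.78% of its positions in that library against 65.5% for PDC1. At positions where the log phase libraries of the other replicate held at least 20 PDC1 reads and at most 25% as many PDC5 reads, PDC5 had 0.304% to 1.24% of the PDC1 reads, compared with 3.37% to 6.64% over all positions. That choice of positions itself favours low values for PDC5 in log phase.

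PDC6, the remaining decarboxylase gene with very low expression in glucose-grown cells, had 36.9 and 14.9 CPM in the log phase euploid and 54.04 and 34.4 CPM in log phase Chr12. At day 4 it had 101.4 and 4194 CPM in the euploid and 1164 and 1769 CPM in Chr12. All 4 day 4 libraries were above all 4 log phase libraries, and the euploid day 4 libraries stood furthest apart of any member and group: the lower one rested on 27 reads and the higher one on 26002. The mean log2 change was 5.71 (SE 1.07, adjusted p = 0.00377), and 3.29 (adjusted p = 0.00114) without euploid day 4 replicate 2. The change was 6.37 in the euploid (adjusted p = 0.0196) and 5.05 in Chr12 (adjusted p = 0.0414). In the euploid the call was lost without either log phase library (adjusted p = 0.0913 and 0.133) or without day 4 replicate 2, where the log2 change was 1.61 (adjusted p = 0.131). In Chr12 it was lost without any one of the log phase or Chr12 day 4 libraries (adjusted p = 0.0622 to 0.232). At positions that separate it from PDC1, again chosen for low log phase counts, PDC6 had 0.0770% to 0.116% of the PDC1 reads in log phase. By day 4 it had 1.81% and 29.9% in the euploid and 7.89% and 24.4% in Chr12.

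ADH1, the alcohol dehydrogenase that makes ethanol, had 15397 and 14488 CPM in the log phase euploid and 19933 and 23240 CPM in log phase Chr12. In the day 4 libraries it had 4639 and 5088 CPM in the euploid and 6793 and 8929 CPM in Chr12. No day 4 library reached a log phase library, and replicates lay close together in each group. ADH1 fell by 1.54 on the log2 scale over both strains (SE 0.28, adjusted p = 0.00319), by 1.62 in the euploid (adjusted p = 0.0190) and by 1.46 in Chr12 (adjusted p = 0.0315). The mean call held without any one library. The call in the euploid was lost without any one log phase library (adjusted p = 0.0553 to 0.126), and that in Chr12 without any one library other than those of euploid day 4 (adjusted p = 0.0856 to 0.263) and with a filter of 1 read (adjusted p = 0.0721). When each position was counted at most once, the mean log2 change was 0.09 (adjusted p = 0.798). ADH1 reads covered 53.5% to 79.98% of its positions in log phase and 24.1% to 60.7% at day 4.

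ADH2, which oxidises ethanol, had the largest log2 change of ADH1 to ADH5. Its CPM was 163 and 177 in the log phase euploid and 269 and 264 in log phase Chr12. At day 4 it was 4489 and 12569 in the euploid and 3929 and 3858 in Chr12. The phases did not overlap, and the highest value was again that of euploid day 4 replicate 2. The log2 change was 5.65 in the euploid (SE 0.65, adjusted p = 0.00196), 3.87 in Chr12 (SE 0.60, adjusted p = 0.00558) and 4.76 over both (SE 0.44, adjusted p = 0.000265). The call in Chr12 was lost without Chr12 log phase replicate 1 (adjusted p = 0.0501) or replicate 2 (adjusted p = 0.0679), with log2 changes of 3.88 and 3.87. Without euploid day 4 replicate 2 the change was 4.37 in the euploid and 4.07 over both strains.

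ADH1 and ADH2 also have coding regions of equal length, 1047 nt, and ADH2 reads in log phase overlapped those of ADH1 in a like way. In log phase 50.4% to 56.5% of the ADH2 reads lay where ADH1 had a count within 2-fold. In log phase Chr12 replicate 1 the 3 positions with the most ADH2 reads, 1026, 303 and 318 nt after the A of the ATG, held 43, 34 and 30 ADH2 reads and 140, 35 and 13 ADH1 reads. At day 4 the share within 2-fold was 21.4% and 23.2% in the euploid and 51.5% and 41.3% in Chr12. Whole-gene ADH2 counts were then 0.432 to 2.47 times those of ADH1, so counts within 2-fold need not reflect reads shared between the genes. In euploid day 4 replicate 2, ADH2 held 5382 reads at position 231 and ADH1 held 268. At positions that separate the 2 genes, chosen as above and so with low ADH2 counts in log phase by choice, ADH2 had 0.0976% and 0.511% of the ADH1 reads in the log phase euploid, and 0.144% and 0.473% in log phase Chr12. By day 4 it had 51.1% and 224% in the euploid and 43.05% and 38.5% in Chr12.

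**Figure D2:**
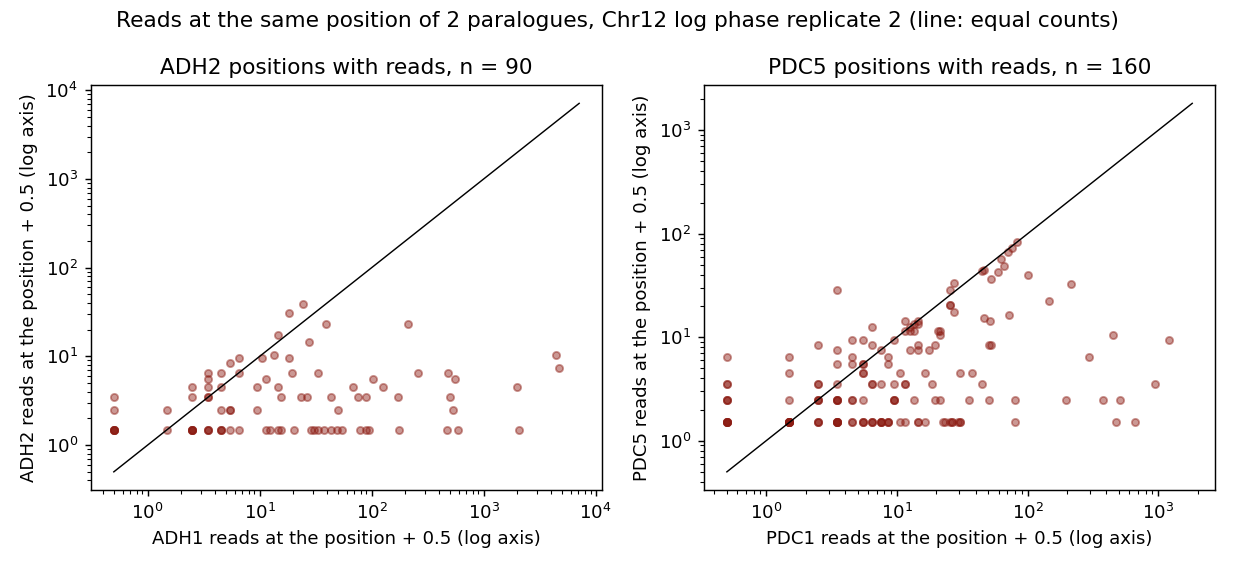
Reads of ADH2 against ADH1 (left) and of PDC5 against PDC1 (right) at the same distance from the start codon in log phase Chr12 replicate 2, both axes log with 0.5 added; each point is a position with reads of the gene on the vertical axis, and the line marks equal counts. Many PDC5 positions with over 10 reads lie close to the line, among them the position with 82 reads in both genes.

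ADH3, the mitochondrial alcohol dehydrogenase, had 200.1 and 301 CPM in the log phase euploid and 131 and 238 CPM in log phase Chr12. In the day 4 libraries it had 116 and 55.5 CPM in the euploid and 189.8 and 495 CPM in Chr12. The euploid libraries were lower at day 4 than in log phase without overlap, while the Chr12 libraries overlapped between phases. Neither change passed the test (log2 change -1.58, SE 0.66, adjusted p = 0.116 in the euploid, and 0.90, SE 0.63, adjusted p = 0.360 in Chr12). DESeq2 called the decrease in the euploid (log2 change -1.76, adjusted p = 0.0369).

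ADH4, an alcohol dehydrogenase unrelated in sequence to the other 4 and known to be induced when zinc is scarce, had few reads: 16 to 45 per library in log phase and 3 to 365 at day 4. Its CPM was 12.5 to 22.1 in log phase. At day 4 it was 11.3 and 58.9 in the euploid and 39.8 and 71.6 in Chr12, so that the phases overlapped through the library with 3 reads. ADH4 passed the test over both strains (log2 change 1.47, SE 0.48, adjusted p = 0.0405), and this call was lost without any one library other than euploid day 4 replicate 1 (adjusted p = 0.0707 to 0.596). Without euploid day 4 replicate 2 the log2 change was 0.38. The call was also lost with RLE scaling (adjusted p = 0.0622), with DESeq2 (adjusted p = 0.0679) and with the replicate number as a block (adjusted p = 0.0518).

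ADH5, a minor alcohol dehydrogenase, had 44.5 to 65.1 CPM in log phase and 45.3 to 116 CPM at day 4. The ranges overlapped and the mean log2 change of 0.39 did not pass the test (SE 0.36, adjusted p = 0.433). Counting each position at most once gave a log2 change of 1.71 (adjusted p = 0.000153). In log phase the codon with the most reads held 39.4% to 65.6% of the ADH5 reads. It was codon 342 in Chr12 log phase replicate 1 and codon 87, described further on, in the other log phase libraries. Reads were also stacked in euploid day 4 replicate 1, the library with 116 CPM, where codon 342 held 21 of 31 reads (67.7%). In the other day 4 libraries the top codon held 7.32% to 17.9%.

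ALD4, the main mitochondrial aldehyde dehydrogenase, is repressed by glucose. It had 98.7 and 72.8 CPM in the log phase euploid and 40.3 and 60.02 CPM in log phase Chr12, from 82 to 179 reads per library. By day 4 it had 3531 and 6122 CPM in the euploid and 2251 and 2664 CPM in Chr12. The phases were far apart, and in each phase both Chr12 libraries were below both euploid libraries. ALD4 rose by 5.71 on the log2 scale over both strains (SE 0.41, adjusted p = 0.000150), by 5.81 in the euploid (adjusted p = 0.00143) and by 5.61 in Chr12 (adjusted p = 0.00228). Without euploid day 4 replicate 2 the change in the euploid was 5.01.

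ALD6, the cytosolic aldehyde dehydrogenase that makes acetate and NADPH in glucose-grown cells, moved in the opposite direction. Its CPM in log phase was 3489.9 and 2669 in the euploid and 4441 and 3174 in Chr12. In the day 4 libraries it was 308.0 and 395 in the euploid and 1615 and 2504 in Chr12. The euploid fell by 3.13 on the log2 scale (SE 0.50, adjusted p = 0.00394) and both strains together by 2.01 (SE 0.34, adjusted p = 0.00219). In Chr12 the log2 change of -0.89 did not pass the test (SE 0.46, adjusted p = 0.216), although its phases did not overlap.

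**Figure D3:**
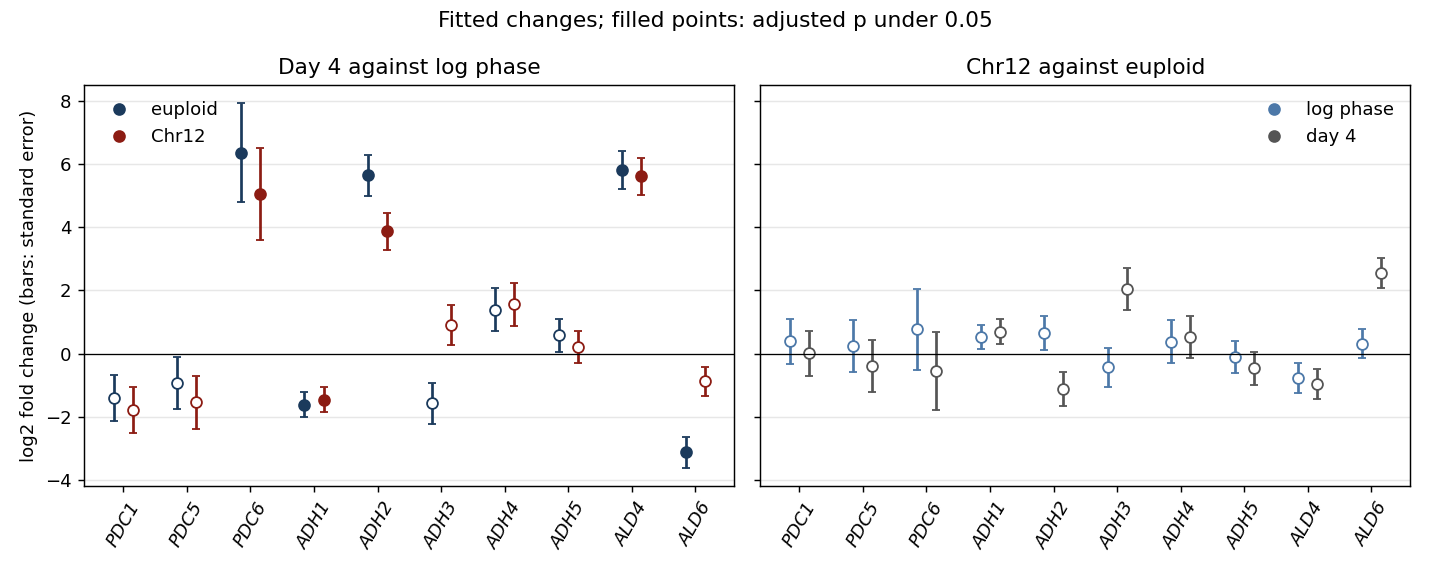
Fitted log2 fold changes with standard errors for the 10 genes, day 4 against log phase in each strain (left) and Chr12 against euploid in each phase (right); filled points have an adjusted p under 0.05 in edgeR. In the left panel 5 points are filled for the euploid and 4 for Chr12, and in the right panel none is filled.

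In the euploid alone 5 members passed the test, 3 higher (PDC6, ADH2 and ALD4) and 2 lower (ADH1 and ALD6), where 27.2% of all genes passed (15.6% higher and 11.6% lower). In Chr12 alone 4 passed, ADH1 lower and PDC6, ADH2 and ALD4 higher, where 22.9% of all genes passed (13.2% higher and 9.67% lower). That ALD6 passed in 1 strain and not in the other does not show that its change differed: the test of the difference between the strains gave a log2 value of 2.24 (SE 0.65, adjusted p = 0.883).

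Levels were compared between genes as RPKM of the gene body, that is CPM per kilobase with 20 codons left out at each end. In log phase ADH1 (11959 to 18876) and PDC1 (8798 to 16197) were highest and their ranges overlapped. ALD6 (1812 to 3007) and PDC5 (423 to 763, with most of its reads at positions of a like PDC1 count) followed without overlap. ADH2 (120.1 to 201) and ADH3 (116 to 250.1) overlapped each other, and ADH5 (39.4 to 51.2), ALD4 (27.3 to 66.2), PDC6 (9.46 to 32.8) and ADH4 (10.7 to 18.1) were lowest, each overlapping a neighbour. At day 4 ADH1 (3545 to 7278), PDC1 (1219 to 7132), ADH2 (2984 to 10332) and ALD4 (1424 to 3997) overlapped at the top. ALD6 ranged from 212 to 1506, PDC6 from 62.1 to 2558, PDC5 from 66.9 to 513 and ADH3 from 44.6 to 394, and ADH4 (10.95 to 59.8) and ADH5 (24.1 to 59.9) were at the bottom.

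The ratio of the reads of 2 isozymes within a library does not depend on depth scaling, and is given here as a description. ADH2 to ADH1 was 0.0106 and 0.0122 in the log phase euploid and 0.0135 and 0.0113 in log phase Chr12. At day 4 it was 0.968 and 2.47 in the euploid and 0.578 and 0.432 in Chr12. The phases did not overlap, and at day 4 both Chr12 libraries were below both euploid libraries.

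ALD4 to ALD6 reads moved over a wider range. The ratio was 0.0283 and 0.0273 in the log phase euploid and 0.00907 and 0.0189 in log phase Chr12. By day 4 it was 11.5 and 15.5 in the euploid and 1.39 and 1.06 in Chr12. Both Chr12 libraries were below both euploid libraries in each phase. PDC5 to PDC1 stayed between 0.0337 and 0.0664 in all 8 libraries with the phases overlapping, and 41.4% to 84.3% of the PDC5 reads behind it lay at positions with a like PDC1 count.

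**Figure D4:**
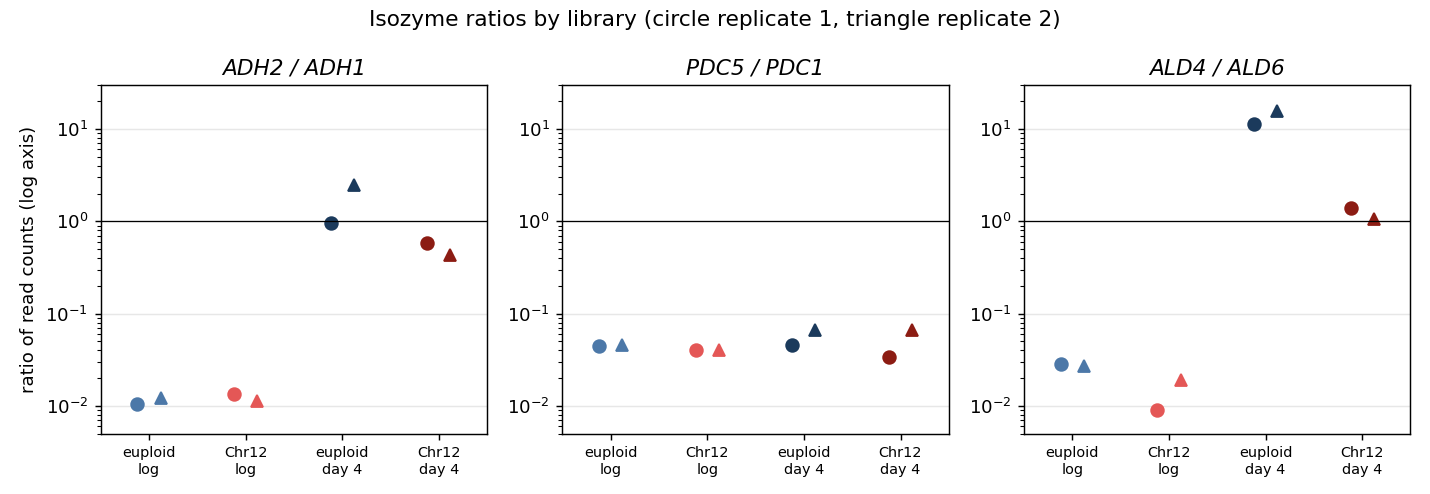
Ratios of read counts of ADH2 to ADH1, PDC5 to PDC1 and ALD4 to ALD6 (vertical log axis, the same in all panels) in each library by strain and phase; circles are replicate 1 and triangles replicate 2, and the horizontal line marks a ratio of 1. At day 4 ALD4 to ALD6 is 11.5 and 15.5 in the euploid and 1.39 and 1.06 in Chr12.

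No member passed the test between the strains, neither in log phase nor at day 4. Over all genes 0% passed in log phase (106 genes had an unadjusted p under 0.05, and none of them was a member) and 0.0690% at day 4, the 4 genes of that count all being higher in Chr12. The test of a strain difference in the change between phases called 0 genes (245 at an unadjusted p under 0.05). DESeq2 called 1, 95 and 36 genes in these 3 comparisons.

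PDC1, on the duplicated chromosome, was higher in Chr12 by 0.39 on the log2 scale in log phase (SE 0.71, adjusted p = 0.999998) and by 0.01 at day 4 (SE 0.71, adjusted p = 0.9996), with overlapping libraries in both phases. The day 4 value was -0.87 without euploid day 4 replicate 1, 1.86 without euploid day 4 replicate 2 and -0.0033 with RLE scaling. PDC5, the other member on that chromosome, differed by 0.23 in log phase (SE 0.82, adjusted p = 0.999998) and by -0.39 at day 4 (SE 0.82, adjusted p = 0.932). Its libraries also overlapped between the strains in both phases. The median chromosome XII gene was higher by 0.69 and 0.67 on the same scale. ADH1, on chromosome XV, was higher in both Chr12 libraries than in both euploid libraries in each phase (log2 difference 0.53, SE 0.39 in log phase and 0.69, SE 0.39 at day 4, adjusted p = 0.999998 and 0.644). Of all genes, 30.5% separated the strains in this way in log phase and 32% at day 4.

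The member that differed most between the strains at day 4 was ALD6. Both Chr12 libraries (1615 and 2504 CPM) were above both euploid libraries (308.0 and 395 CPM), a log2 difference of 2.55 (SE 0.48, unadjusted p = 0.000780, adjusted p = 0.184). DESeq2 (adjusted p = 7.43e-05), the second tables of replicate 1 (adjusted p = 0.0356), counting each position at most once (adjusted p = 0.0110) and leaving out each gene's highest position (adjusted p = 0.0433) each called it. RLE scaling, the filter of 1 read, the gene body alone and the replicate block did not. Leaving out any single library did not either (log2 difference 2.19 to 3.01). ADH3 was higher by 2.04 (SE 0.67, adjusted p = 0.499), ADH2 lower with a log2 difference of -1.13 (SE 0.54, adjusted p = 0.604) and ALD4 lower with -0.97 (SE 0.48, adjusted p = 0.614), again without overlap between the strains. Without euploid day 4 replicate 2 the ADH2 difference was 0.037. The summed CPM of the stationary phase markers differed in the same libraries: it was 30729 and 66772 for the euploid against 7874 and 11156 for Chr12. Of the 5 genes, GRE1 (16583 and 26120 against 2547 and 5131 CPM) and HSP12 (9706 and 6709 against 2226 and 1357) did not overlap between the strains. HSP26, CTT1 and SPI1 did, and SPI1 was 60.1 and 143 CPM in the euploid and 114 and 149 in Chr12. Of 4 genes of growing cells, RPL3 (559.7 and 1013 CPM in the euploid against 1432 and 1903 in Chr12) and RPS3 (466 and 657 against 707 and 1002) were higher in both Chr12 libraries. RPL5 (349 and 615 against 611 and 878) and NSR1 (154 and 35.5 against 130.2 and 104) overlapped. All of these genes had reads in every library. The part of these differences in the strain differences of ALD6, ADH3, ADH2 and ALD4 was not tested.

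Other genes of the route were counted in the same comparison, the mean of both strains, where 22.9% of all genes rose, 17.1% fell and the median log2 change was 0.31. Of the 5 other alcohol dehydrogenases, 4 were tested, and 2 rose and 1 fell (median log2 change 0.98). BDH2 rose by 5.57 and BDH1, a butanediol dehydrogenase, by 1.88, while ADH6, an NADPH-dependent enzyme, fell by 3.24 (adjusted p = 0.000146, 0.00671 and 0.00246). SFA1 did not pass the test, and ADH7 had 0 reads in all 8 libraries. Of the 4 other aldehyde dehydrogenases 3 rose and 1 fell (median log2 change 4.38). ALD3 and ALD2, cytosolic enzymes known to be induced by stress, rose by 4.94 and 4.25, HFD1, a fatty aldehyde dehydrogenase, rose by 4.50, and the mitochondrial ALD5 fell by 1.62.

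Genes for the use of acetate had the highest median change of the pathway lists examined. ADY2, an acetate transporter, rose by 9.25 on the log2 scale (adjusted p = 0.000146), from 4.41 to 13.5 CPM in log phase to 4201 to 5690 CPM at day 4. ACS1, the acetyl-CoA synthetase of cells without glucose, rose by 7.82 and ACH1, a mitochondrial CoA transferase, by 5.54, while ACS2, the synthetase of glucose-grown cells, did not pass the test (log2 change -0.99, adjusted p = 0.103). The median of these 4 genes was 6.68.

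Of 10 genes for other fates of pyruvate, 3 rose, 2 fell and 5 did not pass the test (median 0.39), shares and a median close to those of all genes. The 2 alternative subunits of the mitochondrial pyruvate carrier moved in opposite directions: MPC3, the subunit used in respiring cells, rose by 6.96 and MPC2, the one used in fermenting cells, fell by 2.22. The pyruvate carboxylase genes did so too, PYC1 rising by 1.44 and PYC2 falling by 1.24. LPD1, a subunit that pyruvate dehydrogenase shares with other complexes, rose by 1.18 (adjusted p = 0.0398).

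Of 11 regulators, 8 rose, 0 fell and 3 did not pass the test (median 1.77). CAT8, ADR1 and SIP4, transcription factors that act on genes repressed by glucose, rose by 5.24, 4.47 and 3.86 (adjusted p = 0.000185, 0.00111 and 0.000757). ADR1 is the known activator of ADH2. Of 7 genes of zinc uptake and storage, 5 rose and 1 fell (median 1.48). ZRT1, the high-affinity zinc transporter, rose by 6.46, ZPS1, a zinc-responsive surface protein, by 5.72 and ZRT2, the low-affinity transporter, by 1.93, and IZH2 fell by 1.15. No gene of these lists passed the test between the strains.

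Among 2888 genes above the median abundance, those with log2 CPM most like ADH1 over the 8 libraries were RPS0B (Pearson r = 0.994), NOP56 (r = 0.992) and RPS1A (r = 0.989), which encode 2 ribosomal proteins of the small subunit and a nucleolar protein. Those most like ADH2 were RTN2 (r = 0.997), HEF3 (r = 0.996) and SDH9 (r = 0.995). RPS0B, NOP56 and RPS1A lie on chromosome XII, and their log2 changes between phases were -3.69, -3.39 and -2.47, against -1.54 for ADH1. The values describe 8 libraries that differ by phase and by strain.

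Within ADH1 the reads were uneven. Codons 84 and 85, counted from the start codon with the P site placed 12 nt into the read, held 30.6% and 22.9% of all ADH1 reads in the log phase euploid and 26.9% and 21.5% in log phase Chr12. At day 4 they held 16.2% and 5.62% in the euploid and 7.75% and 3.28% in Chr12. The phases did not overlap. Codon 84 held the most reads in all 4 log phase libraries, and at day 4 only in euploid replicate 1.

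Codons at a matching place, set by the difference in coding length alone without an alignment, stood out in 2 related genes. ADH5 is 3 codons longer than ADH1, and its codons 87 and 88 held 61.02% and 92.2% of its reads in the log phase euploid and 42.5% and 81.8% in log phase Chr12, or 54 to 72 reads. ADH3 is 27 codons longer, and its codons 111 and 112 held 17.1% and 26.8% in the log phase euploid and 10.9% and 25.2% in log phase Chr12. In ADH2 codons 84 and 85 held 0 to 12 reads in log phase, at most 3.07%, and 0.598% to 4.02% at day 4. At day 4 the shares were 3.23% to 17.9% in ADH5 and 3.23% to 9.52% in ADH3, from 1 to 66 reads. Whether some of the reads counted in ADH5 and ADH3 came from ADH1 was not tested. The pair of codons was chosen after the profiles had been seen.

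**Figure D5:**
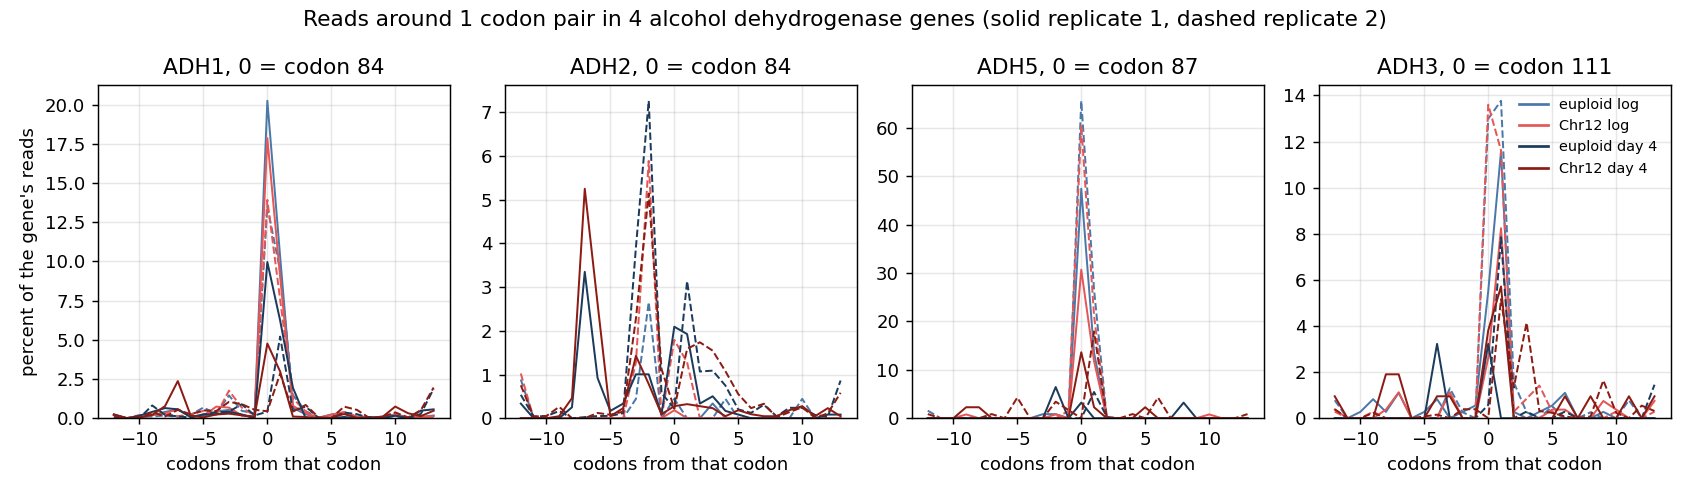
Reads per codon as a percent of all reads of the gene (vertical axis, scaled per panel) from 12 codons before to 13 after codon 84 in ADH1 and ADH2, 87 in ADH5 and 111 in ADH3, 1 line per library; solid lines are replicate 1 and dashed lines replicate 2. In ADH1, ADH5 and ADH3 the log phase lines peak at or 1 codon after 0, and in ADH2 they do not.

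Codon by codon, the strains differed at few places in log phase. Fisher's exact test (two-sided, reads at a codon against those elsewhere in the gene body) called 29 of 1914 member codons in replicate 1 and 21 of 1567 in replicate 2, that is 1.52% and 1.34%, where 0.0621% and 0.188% of all codons tested were called. PDC1 (19 and 8 codons) and ADH1 (9 and 8) held most of the calls. Both had 14158 to 51828 gene-body reads in each log phase library, where 50 sufficed for a gene to be tested. With more reads the test calls smaller differences, so the shares of member codons and of all codons, here and at day 4, were not compared at like depth. The test compares 2 libraries, not the strains: between the replicates of 1 strain it called 21.3% of the member codons in the log phase euploid and 25.9% in log phase Chr12 (3.59% and 3.99% of all codons).

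At day 4 the test called 27 of 1613 member codons in replicate 1 (0.702% of all codons) and 523 of 2808, or 18.6%, in the deeper replicate 2 (9.55% of all codons). Between replicates it called 9.18% of the member codons in the euploid and 16.3% in Chr12 (3.77% and 4.81% of all codons). Of the 523 codons, 302 were higher in Chr12 and 221 in the euploid. The split over all codons was not counted.

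Codon 85 of ADH1 was called in all 4 strain pairs and was lower in Chr12 each time. It held 10.3% and 9.41% of the ADH1 reads in the log phase euploid and 9.01% and 7.57% in log phase Chr12. In the day 4 libraries it held 6.23% and 5.21% in the euploid and 2.98% and 2.84% in Chr12. The adjacent codon 84 held 20.2% and 13.5% in the log phase euploid and 17.9% and 13.9% in log phase Chr12. At day 4 codon 84 held 9.96% and 0.415% in the euploid and 4.76% and 0.442% in Chr12. Its share was thus lower in Chr12 in replicate 1 of each phase, but not in replicate 2. Relative to the gene body, the occupancy of codon 85 in Chr12 was 0.856 and 0.826 of that in the euploid in log phase. At day 4 it was 0.510 and 0.536. Codon 85 of ADH2 was likewise lower in Chr12 in both day 4 pairs, at 0.189 and 0.502 of the euploid occupancy, the first from 23 euploid and 7 Chr12 reads. Codon 151 of ADH1 was higher in Chr12 in both pairs of log phase libraries, at 1.18 and 1.41 times the euploid occupancy. Codon 152 was lower in both day 4 pairs (0.278 and 0.257, the first from 18 euploid and 14 Chr12 reads). At day 4 codon 265 of ADH1 was lower as well (0.0541 and 0.507, the first from 12 euploid reads and 1 Chr12 read). Codon 77 was higher, at 3.96 and 4.38 times the euploid occupancy, the first from 7 euploid and 89 Chr12 reads. In log phase 4 member codons were called in both pairs, 2 with the same direction and 2 with opposite directions, and at day 4 there were 7, of which 5 had the same direction. Calls in both pairs were not counted over all codons, so these counts cannot be read as particular to the members.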

How the data were processed

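Groups and replicate numbers came from the sample labels. The authors trimmed reads, removed noncoding RNA, aligned with bowtie2 to the YPS1009 genome and deposited raw counts of read 5′ ends at each nucleotide of a gene, with 72 nt of upstream and 60 nt of downstream sequence. The handling of reads that match several genes and of duplicate reads is not given in the sources used here, so repeated molecules count as separate reads. A gene's count was the sum of its row. Rows without a systematic name (4, at most 0.0222% of reads) were left out. Names came from the R64 gene table, which matched 5821 rows, and chromosomes from the systematic names. The range of depth is given in the report.

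The main test was edgeR 4.0.16's quasi-likelihood F test (R 4.3.3) with TMM scaling, filterByExpr and 4 group means fitted to all 8 libraries, with Benjamini-Hochberg adjustment over 5794 genes and an FDR of 0.05. With 2 samples per group, p-values measure the spread between these samples. That spread was estimated per gene over all 4 groups, so each comparison also draws on groups outside it. Codon tests needed 50 or more reads in the gene body in each library and were adjusted within each pair. Both tests were tested on simulated data. There edgeR called 13% of genes given a log2 change of 2 between phases in the euploid and 14% in Chr12. Over both strains it called 67.5%. For a log2 change of 4 it called 88% in each strain and 97.5% over both. Python 3.11.15 with scipy 1.17.1 did the rest. Alternatives were RLE factors, DESeq2 1.42.0, a filter of 1 read, gene body only, the second tables of replicate 1 (fewer reads; how they were made is not given in the sources used here), at most 1 read per position, the highest position left out, a replicate block, an FDR of 0.01 for codons, and leaving out each library. The comparison at positions that tell paralogues apart was added after the data were seen. The 10 genes and the lists were chosen with earlier results of these data known. The summed level of a second marker list is not reported here. From each list, up to 3 genes per direction with the largest change past the FDR were named, and any gene past it between the strains.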

Additional observations from a re-analysis of the deposited data

Results flagged for a closer look

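With libraries matched by replicate number, a pairing the labels do not give, ADH3 moved in opposite directions in the 2 strains between the phases. The log2 CPM differences from log phase to day 4 were -0.78 and -2.42 in the euploid and 0.53 and 1.05 in Chr12. Unmatched, the Chr12 phases overlapped (131 and 238 CPM in log phase, 189.8 and 495 at day 4). Matched in the same way between the strains, ADH3 was lower in Chr12 in log phase (-0.61 and -0.34) and higher at day 4 (0.70 and 3.14). Unmatched, the strains overlapped in log phase (200.1 and 301 CPM in the euploid). The edgeR test of the strain difference in the change between phases, which used no matching, gave a log2 value of 2.48 (SE 0.91, unadjusted p = 0.0266, adjusted p = 0.999). It does not pass the correction. The day 4 values rest on 31 and 344 euploid reads and 105 and 1279 Chr12 reads.

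ADH2 was higher in Chr12 than in the euploid in both log phase pairs (0.72 and 0.57) and lower in both day 4 pairs (-0.19 and -1.70). The test of the difference gave -1.78 (SE 0.76, unadjusted p = 0.0472, adjusted p = 0.999), and -0.60 without euploid day 4 replicate 2. About 50.4% to 56.5% of the ADH2 reads in log phase lay at positions where ADH1 had a similar count.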

How the results depend on the processing

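The rises of ADH2 and ALD4 and the falls of ADH1 and ALD6 over both strains passed the test under every alternative run, except that ADH1 did not with each position counted at most once. That count gave ADH1 log2 changes of 0.023 in the euploid, 0.16 in Chr12 and 0.090 over both, strain differences in log phase of -0.031 for PDC1 and -0.0026 for ADH1, 2.90 for the phase change of log2 ADH2 to ADH1, 4.66 for ALD4 to ALD6 (7.72 in the main setting) and -0.73 for PDC5 to PDC1. It also gave 0 member codons in all 4 strain pairs, as it did over all codons, since a codon then holds at most 3 reads. In log phase reads covered 58.8% to 86.1% of PDC1 positions and 53.5% to 79.98% of ADH1 positions, which limits how far this count can differ between libraries. Positions that tell the paralogues apart, chosen for low ADH2 and PDC5 counts in log phase, gave 8.09 for ADH2 to ADH1 (6.21 in the main setting) and -0.68 for PDC5 to PDC1 (0.25), which was -0.43 with the second tables. The PDC1 difference between strains at day 4 was -0.0033 with RLE, -0.0035 with DESeq2, -0.016 with a filter of 1 read and -0.14 in the gene body. ADH5 changed by -0.35 in the euploid and -0.085 over both in the gene body, and by -0.012 in Chr12 with the second tables. The cause was not tested.

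Over all genes, the second tables gave 2066 calls between phases in Chr12. Between the strains in log phase DESeq2 gave 1 call and at most 1 read per position gave 1. At day 4 the count was 0 with RLE, 95 with DESeq2, 0 with a filter of 1 read, 38 with the second tables, 85 with at most 1 read per position and 30 with the highest position left out, with 1 member (ALD6) called in DESeq2 and 1 in each of the last 3. The difference in change between strains gave 36 calls in DESeq2, 21 with at most 1 read per position and 4 with the highest position left out. Codon calls were 12 (log phase replicate 1) and 13 (day 4 replicate 1) with the second tables, and 13 (log phase replicate 2) and 331 (day 4 replicate 2) at an FDR of 0.01.

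Leaving out 1 library gave 633 to 1785 calls between phases in the euploid (3 to 6 members), 62 to 1805 in Chr12 (1 to 7 members; 62 without Chr12 log phase replicate 2) and 0 to 3 between the strains at day 4. The log2 strain difference at day 4 then ranged from -0.87 to 1.86 for PDC1 and from -1.81 to 0.037 for ADH2, and the change between phases from -0.75 to 1.99 for ADH4 in the euploid and from -0.23 to 0.58 for ADH5 in Chr12. The labels do not say that replicate numbers pair the samples. Deviations of same-numbered libraries correlated at 0.21 to 0.82, and with the replicate number as a block 1928, 1699 and 2642 genes passed between phases in the euploid, in Chr12 and over both. ADH4 was the only member whose call over both strains changed under the block. The shallow day 4 libraries limit the rarer members: ADH4 had 3 reads and PDC6 27 in euploid day 4 replicate 1.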
